A study of Homo sapiens with 12 samples.

Results

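The genes described here are 43 genes of mitosis and the mitotic spindle, listed by gene symbol, out of the 60662 genes listed in an RNA-seq table of NCI-H295R cells. They comprise 8 kinases, cyclins and phosphatases of the G2/M transition, 5 genes of the spindle checkpoint, 4 genes of anaphase onset, the 4 subunits of the chromosomal passenger complex, 7 centromere and kinetochore genes, 6 genes for spindle motors and microtubule-binding proteins, 5 genes of the midzone and cytokinesis, 2 genes of chromosome structure and 2 transcription factors. NCI-H295R is an established human adrenocortical carcinoma line that secretes cortisol. Confluent cultures were held without serum for 12 h and then received vehicle (VEH, 0.1% DMSO), 30 µM CJ28 or 30 µM MET for 24 h, with 4 biological replicates in each group and 12 samples in all. CJ28 is a benzimidazolylurea derivative and MET is metyrapone, an inhibitor of 11β-hydroxylase, and the study examined both as inhibitors of cortisol biosynthesis. All groups share 1 cell line, 1 time point and the serum-free period, and each compound was given at 1 dose.

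Cells that enter mitosis condense their chromosomes, build a bipolar spindle and attach each chromosome to it through the kinetochore. Cyclin-dependent kinase 1 with its cyclins drives entry, the spindle checkpoint delays anaphase until attachment is complete, and the anaphase-promoting complex then releases separase, which cuts the cohesin that holds sister chromatids together. The transcripts of most of these proteins are made late in the cell cycle, and in a culture that is not dividing they are low. Many of their promoters carry a cell cycle homology region (CHR), a short element read by the MuvB complexes with MYBL2 and FOXM1, a few bases from the start of transcription and downstream of CCAAT boxes, which are bound by NF-Y.

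The promoters of the members are shown first. Genes of this kind are known to carry CHR and CCAAT elements, as stated above, so the shares below are descriptions and test nothing. RefSeq promoter windows on GRCh38.p14, running from 250 bases before to 50 bases after the annotated start, matched 36 of the 43 members, and AURKA, BUB3, TTK, UBE2C, BIRC5, TPX2 and FOXM1 had no entry. The CHR core TTTGAA, searched on both strands, was in a window of 25 of the 36 members (69.4%), against 18.2% of all 27305 genes with a window and 14.1% of the 10567 such genes that were tested for expression. Within the 60 bases before the start it was found in 17 of 36 members (47.2%), against 3.76% of all genes and 2.84% of the tested genes. A further CHR core, TTCGAA, which reads the same on both strands, was in 3 members (8.33%), against 1.82% of all genes. Other forms of the CHR were not searched. A CCAAT box on either strand was in 29 of 36 members (80.6%), against 39.7% of all genes and 44.1% of the tested genes. TTTGAA and CCAAT stood in the same window in 21 members (58.3%), against 7.26% of all genes. These matches are letters in a window and not measured binding sites.

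**Figure D1:**
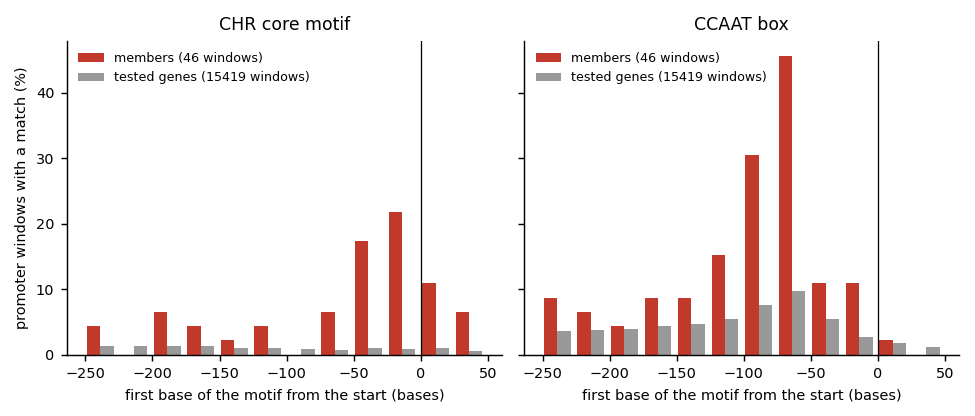
Position of the CHR core TTTGAA (left) and of CCAAT (right) in promoter windows, in bins of 25 bases from 250 bases before to 50 bases after the annotated start, as the percent of windows with a match that begins in the bin. Red bars are the 46 windows of the 36 members with an entry and grey bars the 15419 windows of tested genes. Member CCAAT boxes gather between 100 and 50 bases before the start, where 30.4% and 45.7% of member windows hold one, and member TTTGAA matches lie nearer to the start, with 17.4% and 21.7% of windows in the 2 bins closest before it.

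The 4 members with the lowest log2 fold changes with CJ28 among those given sample by sample that had TTTGAA in their window were SPC25, ESPL1, MKI67 and CDCA8. Their sequences are printed 5′ to 3′ from 150 bases before to 10 bases after the RefSeq start, with TTTGAA and with CCAAT on either strand (CCAAT or ATTGG) in capitals. In MKI67 and CDCA8 a TTTGAA is followed directly by a reversed CCAAT box, and the pair shares 1 base. KIF20A and CDC20, chosen after their values were seen, are added because they had the lowest and the highest log2 fold change with CJ28 of all members. The KIF20A window held 2 reversed CCAAT boxes and no TTTGAA, which does not show that it lacks a CHR, because other forms were not searched. The CDC20 window held TTTGAA and 2 CCAAT boxes. The regions on GRCh38.p14 are chr2:168890421-168890580 on the minus strand for SPC25, chr12:53268149-53268308 on the plus strand for ESPL1, chr10:128126414-128126573 on the minus strand for MKI67, chr1:37692366-37692525 on the plus strand for CDCA8, chr5:138178962-138179121 on the plus strand for KIF20A and chr1:43358831-43358990 on the plus strand for CDC20. The RefSeq start lies 22941 bases inside the gene span listed in the expression table for SPC25, 393 bases inside it for KIF20A and 35 bases inside it for CDCA8.
SPC25: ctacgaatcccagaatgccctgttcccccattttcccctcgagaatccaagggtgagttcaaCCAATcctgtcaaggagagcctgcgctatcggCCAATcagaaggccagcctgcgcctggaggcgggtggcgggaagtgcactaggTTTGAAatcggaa
ESPL1: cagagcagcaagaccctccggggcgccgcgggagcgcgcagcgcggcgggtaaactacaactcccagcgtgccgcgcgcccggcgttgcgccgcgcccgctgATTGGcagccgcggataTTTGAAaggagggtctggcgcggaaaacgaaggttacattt
MKI67: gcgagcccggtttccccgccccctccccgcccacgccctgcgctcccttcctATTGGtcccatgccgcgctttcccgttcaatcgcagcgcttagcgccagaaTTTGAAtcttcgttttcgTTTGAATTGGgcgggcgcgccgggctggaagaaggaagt
CDCA8: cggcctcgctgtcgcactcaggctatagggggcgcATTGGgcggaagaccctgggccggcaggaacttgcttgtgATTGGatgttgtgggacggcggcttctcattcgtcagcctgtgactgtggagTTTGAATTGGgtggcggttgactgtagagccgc
KIF20A: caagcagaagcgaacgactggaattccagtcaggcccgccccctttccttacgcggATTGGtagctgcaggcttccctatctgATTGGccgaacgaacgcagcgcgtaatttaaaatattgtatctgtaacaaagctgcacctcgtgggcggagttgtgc
CDC20: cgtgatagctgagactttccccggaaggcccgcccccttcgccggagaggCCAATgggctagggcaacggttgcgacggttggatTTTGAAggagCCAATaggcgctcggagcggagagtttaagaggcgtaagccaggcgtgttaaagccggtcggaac

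All 43 members were lower in CJ28 than in VEH. The members' CJ28 levels ranged from 26.7% of the VEH level for KIF20A to 67.6% for CDC20, with a median of 50.4%. Levels are TPM, a transcript abundance that is corrected for transcript length and scaled to the same total in every library, and changes are differences of log2(TPM + 0.1) between groups. Gene positions are those of the deposited table, on GRCh38. All 43 members were among the 16815 genes with at least 0.5 TPM in at least 4 samples that were tested, and each passed the limma test at an adjusted p below 0.05 with a lower level in CJ28 (largest adjusted p = 2.302e-05), while 37.1% of the tested genes were called lower and 19.9% higher. The median log2 fold change of the members was -0.99, with a range of -1.89 to -0.57, and that of all tested genes was -0.13. Of all tested genes, 7.08% had a log2 fold change at or below the median of the members, and 21 of the 43 members fell by more than 1 on the log2 scale. In no member did a CJ28 sample reach the lowest VEH sample, which was so for 32.7% of all tested genes in that direction. The members were chosen with earlier results of these data known, so counts set beside the share of all tested genes are descriptions. In bulk RNA, fewer cells in mitosis and less RNA per cell cannot be told apart.

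TPM is relative to everything else in the library. Nuclear protein-coding genes held 24.3% to 24.8% of TPM in the VEH samples, 24.1% to 24.6% in MET and 21.3% to 21.4% in CJ28. After median-of-ratios scaling, which sets the median change of all tested genes to 0.014, 26.3% of genes were called lower and 29.3% higher with CJ28. The 43 members were again all called lower (largest adjusted p = 4.11e-05), with a median log2 fold change of -0.84 and a range of -1.74 to -0.41. With TPM recomputed over nuclear protein-coding genes alone the median was -0.78. Among the 8135 tested genes with a mean TPM at or above that of the lowest member (4.91), 45.2% were called lower, and 31.6% after scaling.

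The study called genes at a log2 fold change above 1.5 and a P under 0.01, without saying whether P was adjusted. Read as an unadjusted p and as holding in both directions, 5 of the 43 members fell (KIF20A, SPC25, ESPL1, MKI67 and SPC24), against 1.59% of the tested genes in that direction. After scaling 3 members passed.

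**Figure D2:**
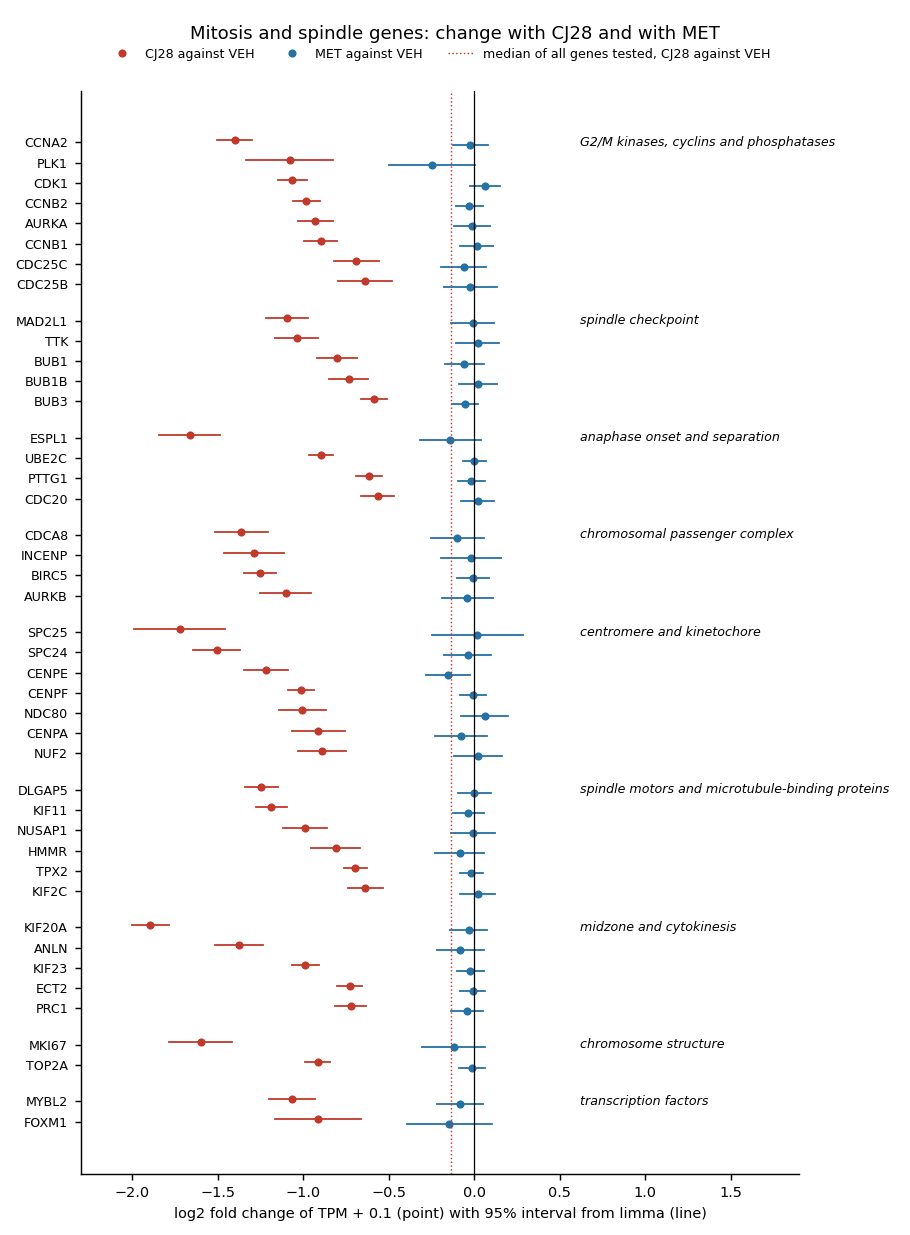
Log2 fold change of TPM + 0.1 (horizontal axis) for each of the 43 members, grouped by role, with CJ28 against VEH in red and MET against VEH in blue. Lines are 95% intervals from limma with 4 samples per group, and the dotted line is the median of all tested genes with CJ28, -0.13. The red points lie between -1.89 and -0.57 and the blue points between -0.25 and 0.06.

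The 8 G2/M kinases, cyclins and phosphatases fell with a median of -0.96 and a range of -1.4 to -0.64. CCNB1, cyclin B1, the main mitotic partner of CDK1, had the highest level of the 8. Its TPM was 93.1, 99.5, 103 and 99.98 in the VEH samples, 51.9, 53.8, 57.1 and 49.2 in CJ28 and 101, 102, 99.7 and 96.97 in MET. The CJ28 samples stood well below the others, and the log2 fold change against VEH was -0.90 (SE 0.045, adjusted p = 4.42e-09). CCNA2, cyclin A2, which acts from S phase into early mitosis, fell the most of this group. It measured 33.7, 35.3, 34.9 and 33.3 TPM in VEH, 13.02, 12.7, 13.98 and 12.1 in CJ28 and 34.4, 34.4, 31.6 and 34.8 in MET, a fall to 37.8% of VEH (log2 fold change -1.40, SE 0.047, adjusted p = 1.26e-10). CDC25B, a phosphatase that activates CDK1 at the onset of mitosis, changed least. Its VEH samples held 7.93, 8.26, 7.31 and 8.78 TPM, its CJ28 samples 5.54, 4.99, 4.79 and 5.26 and its MET samples 7.56, 7.48, 7.91 and 8.79. The groups VEH and CJ28 did not overlap, with -0.64 on the log2 scale (SE 0.071, adjusted p = 7.84e-06). CDK1 itself averaged 59.4 ± 1.704 TPM (SD, n = 4) in VEH and 28.4 ± 1.41 in CJ28. PLK1, polo-like kinase 1, varied more between replicates, with 13.4, 15.7, 12.6 and 13.7 TPM in VEH and 5.91, 6.65, 5.44 and 8.22 in CJ28, and fell to 47.4% of VEH. CCNB2, cyclin B2, CDC25C, a further CDK1 phosphatase, and AURKA, the kinase of the spindle poles, had log2 fold changes of -0.98, -0.69 and -0.93.

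The 5 spindle checkpoint genes had a median log2 fold change of -0.80. MAD2L1, which encodes MAD2, the protein that holds CDC20 inactive while kinetochores are unattached, fell the most. Its TPM was 45.5, 47.4, 44.2 and 44.4 in VEH, 21.9, 21.9, 22.6 and 18.7 in CJ28 and 43.8, 48.5, 44.1 and 43.95 in MET. The CJ28 values were far below all others, and the log2 fold change was -1.09 (SE 0.057, adjusted p = 6.59e-09). BUB3, which binds BUB1 and BUB1B at the kinetochore, was both the highest and the least changed of the 5. It stood at 104, 112, 109 and 108 TPM in VEH, 75.6, 70.3, 73.5 and 69.6 in CJ28 and 105, 107, 102 and 104 in MET. Its fall to 66.6% of VEH (log2 fold change -0.59, adjusted p = 2.04e-08) was still clear of the replicate spread. TTK, the kinase MPS1, fell to 48.5%, BUB1 to 57.3% and BUB1B to 60.1% of VEH.

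Among the 4 genes of anaphase onset (median -0.76), separase had the largest fall. ESPL1 encodes separase, the protease that cleaves cohesin (chr12:53268299-53293638, plus strand), and measured 15.99, 15.1, 14.2 and 14.8 TPM in VEH, 4.75, 4.96, 4.01 and 5.02 in CJ28 and 14.4, 14.4, 11.8 and 13.9 in MET. CJ28 held 31.2% of the VEH level, with no overlap and a log2 fold change of -1.66 (SE 0.081, adjusted p = 3.78e-09). PTTG1 encodes securin, which keeps separase inactive until anaphase. It had 82.01, 87.03, 86.2 and 83.2 TPM in VEH, 56.6, 55.9, 56.5 and 51.7 in CJ28 and 85.3, 83.9, 80.9 and 84.4 in MET, with a log2 fold change of -0.62 (SE 0.036, adjusted p = 1.73e-08). CDC20, the activator of the anaphase-promoting complex in mitosis (chr1:43358981-43363203, plus strand), was the least changed of all members. Its values were 31.6, 33.2, 31.4 and 31.2 TPM in VEH, 21.04, 22.98, 20 and 22.01 in CJ28 and 32.5, 33.04, 30.9 and 32.7 in MET, and the log2 fold change was -0.57 (SE 0.044, adjusted p = 3.08e-07). UBE2C, the ubiquitin-conjugating enzyme that works with the complex, fell from 78.8 ± 1.495 to 42.3 ± 1.502 TPM (SD, n = 4).

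The 4 subunits of the chromosomal passenger complex, which corrects wrong attachments and later acts in cytokinesis, fell within a narrow range of -1.36 to -1.10, with a median of -1.27. BIRC5 (survivin) was highest, with 33.9, 32.8, 33.6 and 34.6 TPM in VEH, 14.4, 14.2, 14.3 and 13.6 in CJ28 and 31.6, 35.6, 34.96 and 31.95 in MET. CDCA8 (borealin) was at 13.9, 13.5, 11.5 and 14.7 TPM in VEH, 5.05, 5.06, 4.78 and 5.65 in CJ28 and 12.04, 12.7, 12.6 and 12.4 in MET. AURKB, the kinase of the complex, was at 25.9, 23.2, 23.3 and 26.2 TPM in VEH, 10.6, 11.3, 10.9 and 12.99 in CJ28 and 25.1, 22.1, 24.3 and 24.4 in MET. In all 3 genes the highest CJ28 sample was below the lowest sample of either other group, and the log2 fold changes against VEH were -1.25, -1.36 and -1.10 (largest adjusted p = 3.58e-08). INCENP, the scaffold subunit, spread from 19.5 to 25.2 TPM in VEH and from 8.37 to 9.5 in CJ28, and its log2 fold change was -1.29.

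The 7 centromere and kinetochore genes had a median of -1.01. CENPF, a large protein of the outer kinetochore that accumulates in G2, was the most abundant transcript. It held 58.9, 61.4, 61.02 and 61.7 TPM in VEH, 31.1, 30.6, 29.97 and 28.9 in CJ28 and 62.5, 61.6, 57.6 and 59.9 in MET, or 49.6% of VEH with little spread (log2 fold change -1.01, SE 0.035, adjusted p = 1.48e-10). The NDC80 complex, which binds the microtubule, is made of NDC80, NUF2, SPC24 and SPC25. SPC25 (chr2:168834132-168913371, minus strand) had the lowest level of the 4 and fell the most, with 7.17, 6.61, 7.41 and 8 TPM in VEH, 2.82, 1.9, 1.74 and 2.23 in CJ28 and 7.26, 6.68, 7.71 and 7.92 in MET. Its replicates in CJ28 were uneven but all lay far below the lowest VEH value, and the log2 fold change was -1.72 (SE 0.12, adjusted p = 1.29e-07). NUF2 fell the least in this group, from 22.3, 23.9, 22.4 and 20.3 TPM in VEH to 11.99, 13.5, 11.3 and 11 in CJ28, with 22.4, 23.3, 22.2 and 21.99 in MET (log2 fold change -0.89, adjusted p = 1.48e-07). The log2 fold change was -1.0 for NDC80 and -1.51 for SPC24. CENPA, the histone variant that marks centromeres, fell to 52.9% and CENPE, a kinesin of the kinetochore, to 42.6% of VEH.

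Of the 43 members, 22 overlap another listed gene, and for 8 of them (CCNA2, CDC25C, CENPA, NUF2, SPC24, SPC25, KIF20A and FOXM1) such a gene had at least 10% of the member's VEH level. The libraries were stranded, but the sources used here do not give whether the counting used strand, and the part of overlapping genes in these values was not tested. The neighbours given here were chosen after values were seen. KIF20A shares 268 bases with BRD8 (24.6 TPM in VEH, 16.0 in CJ28) and 74 bases with CDC23 (16.0 and 15.4), SPC25 shares 31383 bases with NOSTRIN (4.85 and 3.91), CCNA2 shares 578 bases with EXOSC9 (18.5 and 12.6) and NUF2 shares 55216 bases with RGS5 (7.61 and 6.12). Each of these neighbours is on the opposite strand and had a log2 fold change nearer to 0 than its member. CENPA overlaps SLC35F6 on the same strand (8.625 TPM in VEH, 8.935 in CJ28). On the opposite strand, CDC25C overlaps FAM53C (8.13 and 8.73) and FOXM1 overlaps RHNO1 (22.96 and 19.58) and ITFG2 (9.43 and 6.93). NUF2 also overlaps AL592435.1 on the opposite strand (2.83 and 3.03). Listed copies named after a member, mostly processed pseudogenes, numbered 14 for 9 members, and none exceeded 2.24% of its member's level.

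The 6 genes for spindle motors and microtubule-binding proteins had a median of -0.90. NUSAP1, which bundles and stabilizes spindle microtubules near chromosomes, had the highest mean VEH level of all members. It read 139, 146, 152 and 148 TPM in VEH, 75.2, 80.4, 73.6 and 66.3 in CJ28 and 152, 153, 145 and 133 in MET, so VEH and MET overlapped and CJ28 stood at 50.5% of VEH (log2 fold change -0.99, SE 0.059, adjusted p = 2.38e-08). DLGAP5 (HURP), a spindle assembly protein, was at 33.4, 35.9, 34.3 and 35.03 TPM in VEH, 15.2, 14.1, 15.3 and 13.8 in CJ28 and 36.1, 35.3, 34.1 and 33.4 in MET. KIF2C (MCAK), a kinesin that depolymerizes microtubules, was at 15.8, 15.8, 16.4 and 15.9 TPM in VEH, 10.6, 10.8, 9.69 and 9.96 in CJ28 and 16.1, 16.3, 17.3 and 15.3 in MET. DLGAP5 fell to 42.1% and KIF2C only to 64.1% of VEH, with no overlap of CJ28 and VEH in either (adjusted p = 1.81e-10 and 1.67e-07). KIF11 (Eg5), the motor that pushes spindle poles apart, fell to 43.8%, TPX2, which activates AURKA on the spindle, to 61.7%, and HMMR, a spindle-associated hyaluronan receptor, to 56.8% of VEH.

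The widest range within a role was found among the 5 genes of the midzone and cytokinesis. KIF20A (MKLP2), the kinesin that carries the passenger complex to the midzone (chr5:138178719-138187723, plus strand), fell the most of all members. It had 27.1, 27.2, 26.5 and 27.8 TPM in VEH, 6.91, 7.35, 7.68 and 7.01 in CJ28 and 25.1, 28.9, 25.4 and 27.02 in MET. The 4 CJ28 samples lay close together at 26.7% of VEH, with a log2 fold change of -1.89 (SE 0.05, adjusted p = 1.53e-11). PRC1, which cross-links the antiparallel microtubules of the midzone, was the most abundant of the 5 and fell the least. Its samples read 143, 145, 145 and 147 TPM in VEH, 85.8, 89.3, 92.2 and 84.8 in CJ28 and 133, 153, 142 and 137 in MET (log2 fold change -0.72, SE 0.042, adjusted p = 1.87e-08). ANLN, anillin of the contractile ring, fell to 38.5%, KIF23, the kinesin of centralspindlin, to 50.4%, and ECT2, the exchange factor that activates RHOA at the furrow, to 60.3% of VEH.

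MKI67 encodes Ki-67, the surface protein of mitotic chromosomes used to stain dividing cells, and TOP2A encodes topoisomerase IIα, which untangles sister chromatids. MKI67 (chr10:128096659-128126423, minus strand) measured 40.9, 47.1, 38.8 and 48.7 TPM in VEH, 14.9, 14.4, 12.3 and 16.1 in CJ28 and 40.1, 40.3, 38.8 and 41.5 in MET. TOP2A measured 91.4, 94.01, 95.9 and 97.9 TPM in VEH, 51.6, 48.7, 51.7 and 48.8 in CJ28 and 93.6, 97.8, 93.7 and 91.1 in MET. MKI67 was the more variable of the pair in VEH and had the lower log2 fold change, -1.60 (SE 0.084, adjusted p = 7.46e-09) against -0.92 (SE 0.034, adjusted p = 3.12e-10). FOXM1 and MYBL2 encode the transcription factors that act on G2/M promoters. FOXM1 was at 27.98, 29.4, 21.5 and 28.98 TPM in VEH, 15.1, 15, 11.1 and 15.97 in CJ28 and 23.7, 24.01, 24.4 and 24.6 in MET. MYBL2 was at 17.4, 17.1, 16.1 and 19.1 TPM in VEH, 7.99, 8.8, 7.5 and 8.77 in CJ28 and 15.97, 16.95, 16.4 and 16.2 in MET. Both fell without overlap, FOXM1 with a log2 fold change of -0.91 (SE 0.12, adjusted p = 2.30e-05, the largest of the 43) and MYBL2 with -1.07 (SE 0.061, adjusted p = 1.70e-08). For every member the two-sided exact permutation test of mean TPM, CJ28 against VEH, gave p = 0.0286, the smallest that 4 against 4 samples allow. This value follows from the lack of overlap, which also held for 32.7% of tested genes in that direction.

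**Figure D3:**
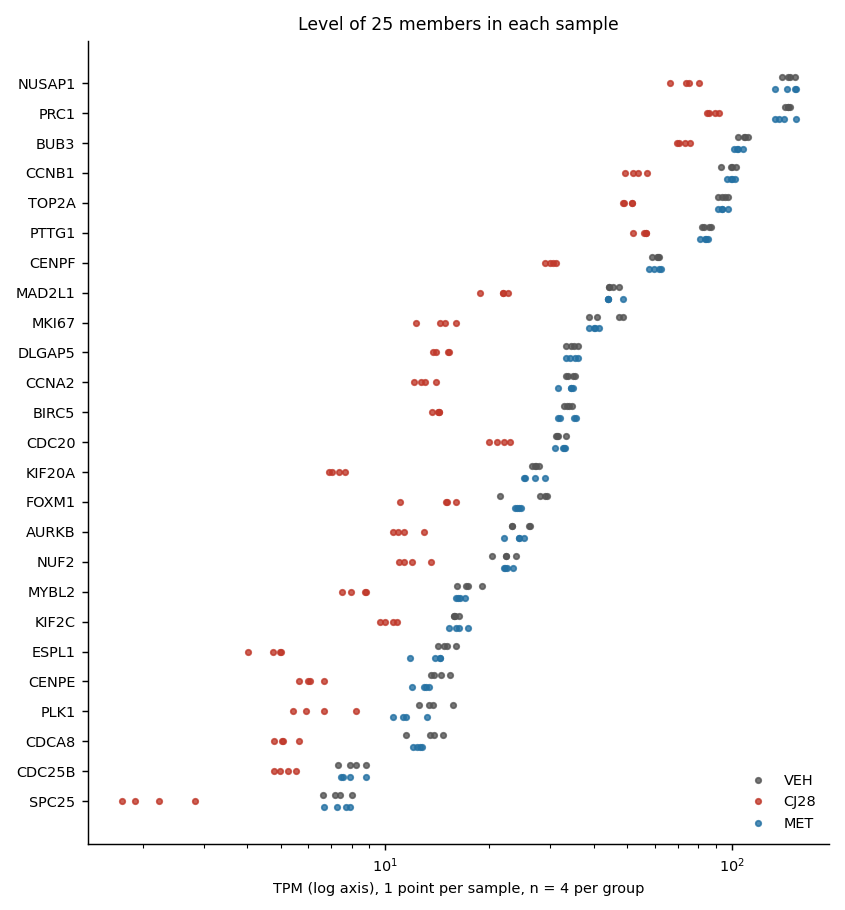
TPM (log axis) of the 25 members given sample by sample, ordered by level, with 1 point per sample and 4 samples each of VEH (grey), CJ28 (red) and MET (blue). In every row the red points lie to the left of the grey and blue points, which overlap except for CENPE, where the highest MET sample is below the lowest VEH sample.

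Genes whose proteins work together were also compared within samples. A ratio of 2 genes within a sample is free of library-wide scaling, so 14 ratios between partners were computed. The pairs were chosen after values had been seen and are given without a test. The separase to securin ratio (ESPL1/PTTG1) was 0.195, 0.173, 0.164 and 0.178 in the VEH samples, 0.084, 0.0888, 0.07095 and 0.09702 in CJ28 and 0.169, 0.172, 0.146 and 0.165 in MET. Every CJ28 sample was below every other sample, and the CJ28 mean was 0.4796 times the VEH mean. KIF20A against PRC1, its partner at the midzone, gave 0.187 ± 0.00316 (SD, n = 4) in VEH, 0.0822 ± 0.00119 in CJ28 and 0.189 ± 0.00742 in MET. Within the NDC80 complex SPC25 was lower in CJ28 relative to NUF2, with SPC25/NUF2 going from 0.331 ± 0.0484 to 0.183 ± 0.0439, and the ratio of NUF2 to NDC80 overlapped between CJ28 and VEH. The cyclin ratio CCNA2/CCNB1 was lower too, at 0.333 to 0.363 in VEH and 0.236 to 0.251 in CJ28. MAD2L1 relative to its target CDC20 ranged over 1.41 to 1.44 in VEH and 0.851 to 1.13 in CJ28. CCNB1 relative to CDK1 was higher in CJ28, at 1.78 to 1.95, than in VEH, at 1.61 to 1.71. Subunits of the passenger complex kept overlapping ratios (AURKB/INCENP and BIRC5/CDCA8), as did KIF23 and RACGAP1, which together form centralspindlin, at 0.575 ± 0.0179 in VEH and 0.584 ± 0.0278 in CJ28. RACGAP1 is not among the 43 genes. In MET, 13 of the 14 ratios overlapped those of VEH, the exception being CCNB2/CCNB1, at 0.5324 to 0.5524 in VEH and 0.522 to 0.5318 in MET.

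**Figure D4:**
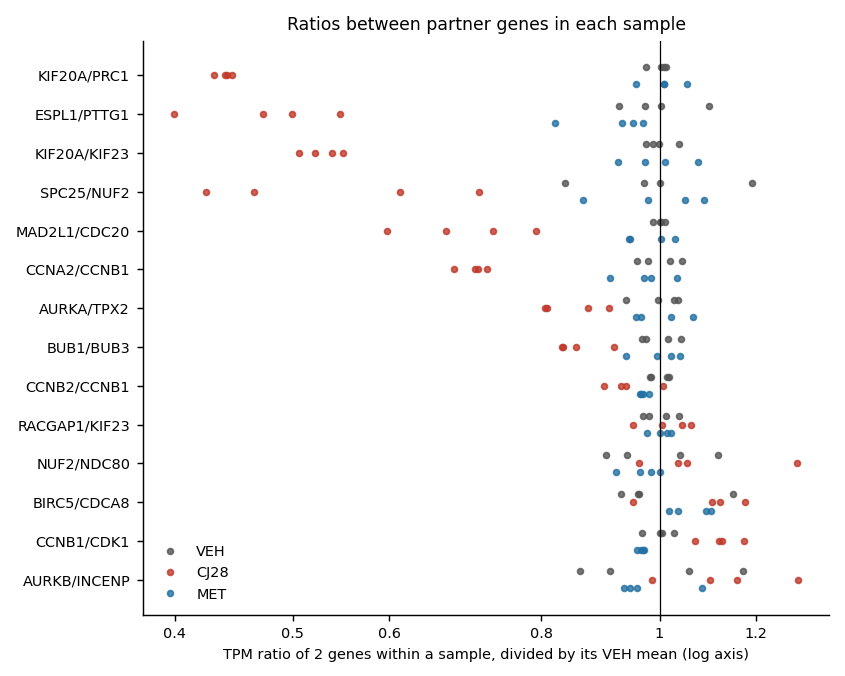
TPM ratio of 2 partner genes in each sample, divided by the mean ratio of the 4 VEH samples (log axis), for VEH (grey), CJ28 (red) and MET (blue), 4 points per group. The red points of KIF20A/PRC1 and ESPL1/PTTG1 sit near 0.439 and 0.480 of the VEH mean, and those of RACGAP1/KIF23 spread around 1.

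Gene properties were set against the size of the change. Across the 43 members, which share the same 12 libraries, Pearson's r of the log2 fold change with CJ28 was -0.027 with transcript GC content (35.4% to 60.5%), -0.16 with log2 transcript length and 0.23 with log2 mean TPM in VEH. The 25 members with TTTGAA in their promoter window had a median log2 fold change of -1.004 and the 11 without it -1.07. Those 11 include BUB1 and CDC25B, which held TTCGAA, so they are not a group without a CHR core. The 29 with CCAAT had a median of -1.01 and the 7 without it -1.004. These values are descriptions across genes, which are not independent replicates.

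In MET, at the same dose and time, the members stayed near their VEH levels. In limma 0 of the 43 members were called in either direction (smallest adjusted p = 0.933), against 0.00595% of tested genes called lower, which is 1 gene, and 0% called higher. At an unadjusted p under 0.05 there was 1 member among 874 genes. The members' MET levels lay between 84.1% and 104.5% of VEH, and their median log2 fold change was -0.02, against -0.026 for all tested genes. The log2 fold change was below 0 for 32 members and above 0 for 11, and after scaling it was below 0 for 18 and above 0 for 25. The 95% intervals had a median half-width of 0.12, with a lowest bound of -0.501 (PLK1) and a highest bound of 0.29 (SPC25). The smallest fall with CJ28 was -0.57 (CDC20, 95% interval -0.66 to -0.47), and its interval overlapped that of PLK1 with MET. Both comparisons use the same VEH samples.

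CENPE, PLK1 and ESPL1 had the smallest unadjusted p-values with MET. CENPE was at 13.8, 15.4, 13.6 and 14.5 TPM in VEH, 13.4, 13.1, 11.99 and 12.9 in MET and 6.08, 5.99, 6.68 and 5.63 in CJ28. Every MET sample was below the lowest VEH sample, as for 2.03% of tested genes in that direction. The limma fit gave a log2 fold change of -0.15 (95% interval -0.28 to -0.02, unadjusted p = 0.0255, adjusted p = 0.933). PLK1 read 10.6, 11.5, 13.2 and 11.2 TPM and ESPL1 14.4, 14.4, 11.8 and 13.9 TPM in MET, and both overlapped VEH. Their log2 fold changes were -0.25 (95% interval -0.50 to 0.005) and -0.14 (-0.32 to 0.04), and none of these 3 differences held after adjustment.

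A direct comparison of both compounds separated them in all members. The 43 were lower in CJ28 than in MET (largest adjusted p = 0.000104), against 34.6% of tested genes called lower, or 26.1% after scaling, where the 43 were again all called lower. The median log2 fold change was -0.97, from -1.86 for KIF20A to -0.53 for BUB3. No member overlapped between the groups, as for 31.3% of tested genes in that direction. The compounds were given at 1 dose and 1 time each, and their structures are not closely related.

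The rest of the mitotic machinery was examined in 10 lists with 130 genes that are not members, all of which were tested. These lists and the DNA replication list below were also chosen with earlier results of these data known, and their counts are descriptions. With CJ28, 104 fell, 5 rose and 21 were not called, with a median of -0.56, and after scaling 90 were lower and 11 higher with a median of -0.41. Of all tested genes, 37.1% were called lower and 19.9% higher, or 26.3% and 29.3% after scaling. The 5 of the 130 that rose were CLASP2, ESCO1 and E2F5 and, named after their values were seen, PDS5A and LIN54. In condensin, which compacts mitotic chromosomes, 7 of 8 genes fell (median -0.96), led by NCAPG from 23.2 ± 1.297 to 8.83 ± 0.668 TPM (SD, n = 4), and NCAPH2, named after its values were seen, was not called (7.45 and 7.28 TPM, adjusted p = 0.598). Among 21 other kinesins and spindle proteins 20 fell (median -0.996), with GTSE1 lowest at -1.46, and CLASP2, which stabilizes microtubule plus ends, rose from 21.7 ± 2.19 to 34.4 ± 0.877 TPM. The constitutive centromere list had 16 of 17 genes lower, with CENPW the most, from 21.1 ± 1.42 to 6.96 ± 1.17 TPM, and the outer kinetochore list 11 of 14, with KNL1, the platform for the checkpoint, at -1.35. All 11 genes of G2/M entry control fell, with CCNF (cyclin F) at -1.37. Of 11 centrosome genes 10 fell, with CEP152 at -0.78, and of 5 other cytokinesis genes 4 fell, with CEP55, which acts in abscission, at -0.98.

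CDC20 and UBE2C act on the anaphase-promoting complex. Of its 17 genes and partners 6 fell and 11 were not called, with a median of -0.12, where 37.1% of all tested genes fell and their median was -0.13. After scaling 4 were lower and 3 (ANAPC1, ANAPC13 and ANAPC16, not called without scaling) higher, beside 26.3% and 29.3% of all tested genes. Far below the rest were ANAPC15, a small subunit that promotes turnover of the checkpoint complex, from 12.5 ± 0.609 to 3.88 ± 0.236 TPM (log2 fold change -1.66, adjusted p = 8.76e-11), and FBXO5 (EMI1), an inhibitor of the complex named after its values were seen, at -1.14. Cohesin and its regulators were split, with 11 of 15 lower and 2 higher (8 and 2 after scaling). The acetyltransferase ESCO2, which acts in S phase, fell from 7.21 ± 0.939 to 2.22 ± 0.458 TPM and its relative ESCO1 rose from 5.51 ± 0.219 to 6.98 ± 0.396. ESCO2 overlaps PBK (16.4 TPM in VEH, 7.71 in CJ28) and CCDC25 (12.1 and 15.59) on the opposite strand. Also on the opposite strand, ANAPC15 overlaps LRTOMT (2.99 and 1.84) and NCAPG overlaps LCORL (9.78 and 12.65). In the list of MuvB and DREAM subunits, which repress or, with MYBL2, activate G2/M promoters, 8 of 11 fell and 2 rose, with a median of -0.27, and after scaling 5 were lower and 3 higher. TFDP1 fell from 67.1 ± 1.08 to 37.9 ± 0.751 TPM, and E2F5, a repressor E2F, rose from 2.26 ± 0.217 to 4.66 ± 0.481. E2F5 overlaps RBIS on the opposite strand (36.5 TPM in VEH, 28.3 in CJ28).

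Genes of DNA replication, which are used earlier in the cell cycle, were set beside the members. Of 35 such genes 33 fell and 1 rose (31 and 1 after scaling), with a median of -0.78, or -0.63 after scaling, against -0.99 and -0.84 for the members. The shares of all tested genes were 37.1% lower and 19.9% higher, or 26.3% and 29.3% after scaling. RRM2, a subunit of ribonucleotide reductase, fell from 54.2 ± 5.44 to 7.74 ± 0.786 TPM, which at -2.79 on the log2 scale was beyond every member, and RFC1, the large subunit of the clamp loader, rose from 37.1 to 41.7 TPM with overlapping groups (log2 fold change 0.17, adjusted p = 0.04099). The difference between the lists was not tested. With MET, 0 of the 130 genes and 0 of the 35 were called in limma, with 6 and 2 at an unadjusted p under 0.05.

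**Figure D5:**
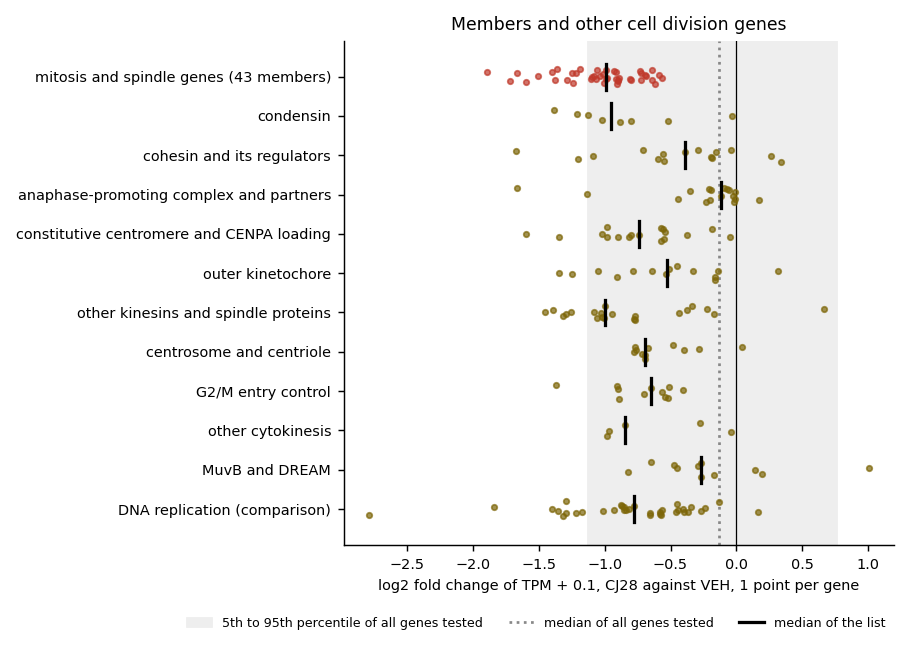
Log2 fold change of TPM + 0.1 with CJ28 against VEH (horizontal axis), 1 point per gene, for the 43 members (red) and for 11 lists of other cell division genes. The black bar is the median of each list, the dotted line the median of all tested genes and the grey band their 5th to 95th percentile, -1.13 to 0.76. The members center on -0.99, condensin and the other kinesins lie close to them, and the anaphase-promoting complex centers on -0.12.

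The cultures were checked for cell identity. Of 9 adrenocortical markers 8 were tested, among them NR5A1, STAR and CYP11A1. HSD3B2 and MC2R averaged only 0.86 and 1.045 TPM in VEH, and CYP11B1 was at or near 0 in all groups. The summed level of the list was 273.6 to 284.4 TPM in VEH, 272.6 to 286.2 in MET and 114.7 to 121.7 in CJ28. The sum thus moved with the members, while NR0B1 on the same list was higher in CJ28 (5.81 ± 0.292 TPM, SD, n = 4) than in VEH (2.94 ± 0.271). The study reported that CJ28 significantly altered several of these transcripts, including NR5A1, STAR and CYP11A1, and that MET did not. In CJ28 the sum is therefore no check of cell identity. The part of these genes in the members' change was not tested. Markers of chromaffin cells summed to at most 1.17 TPM in any sample, of leukocytes to 0.82, of endothelial cells to 0.11 and of fibroblasts to 1.2, with TH and CD3E at 0 in all 12 samples.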

How the data were processed

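RNA depleted of ribosomal RNA was sequenced from both ends with a stranded kit. The authors used Cutadapt (version 2.8), STAR (version 2.7.10b) on GRCh38 and RSEM (version 1.3.3), and deposited TPM to 2 decimals. TPM keeps no read depth, so counting error is unknown, and the annotation release is not given in the sources used here. The DESeq2 counts behind the authors' own comparisons were not analysed here. From the table, limma (lmFit and eBayes with trend, version 3.58.1, under R 4.3.3) was run on log2(TPM + 0.1) for 16815 genes reaching 0.5 TPM in 4 or more of the 12 samples. The 3 groups shared 1 fit with no covariates, tests were two-sided, and p-values were adjusted by Benjamini-Hochberg over all tested genes. Exact permutation tests used scipy (version 1.17.1). Groups and replicate numbers came from the labels, which name biological replicates without saying how they were cultured. Members and gene lists were chosen with earlier results of these data known. In each role the member with the highest VEH level and those with the lowest and highest log2 fold change with CJ28 are given sample by sample, with the 3 smallest p-values for MET, and in each list of other genes the largest called fall and rise. Alternatives changed the pseudocount (1 or 0.01), the filter (none, or mean TPM from 1 upward), the scaling (median of ratios, or nuclear protein-coding genes alone), the samples in the fit, the variance moderation and the block. Equal replicate numbers did not mark shared deviations, with correlations of 0.004 to 0.039 between CJ28 and VEH, -0.063 to 0.021 between MET and VEH and -0.12 to -0.0077 between CJ28 and MET. No 2 samples were identical. The neighbour values of 1 overlap are not reported here.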

Additional observations from a re-analysis of the deposited data

Results flagged for a closer look

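In each group of 4 samples the highest and the lowest value of every member were compared with the other 3, and a value was singled out when its gap to the nearest other value took up more of the group's range than Dixon's 95% limit allows. Of 129 combinations of member and group, 8 met this, and chance gives about 1 in 20. In CJ28, CDK1 was lowest in sample 4 at 26.32 TPM, with the others at 28.92 to 29.25, PTTG1 was lowest in sample 4 at 51.74 TPM, with the others at 55.89 to 56.55, and ANLN was highest in sample 3 at 21.6 TPM, with the others at 18.08 to 18.41. In MET, CCNA2 was lowest in sample 3 at 31.58 TPM (others 34.36 to 34.8), CENPA was lowest in sample 3 at 11.04 TPM (others 12.07 to 12.26) and MAD2L1 was highest in sample 2 at 48.48 TPM (others 43.83 to 44.05). In VEH, KIF2C was highest in sample 3 at 16.38 TPM (others 15.83 to 15.89) and TPX2 was lowest in sample 1 at 40.55 TPM (others 41.4 to 41.52). Every one of these CJ28 values stayed below the lowest VEH and MET value of its gene.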

How the results depend on the processing

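All 43 members were called lower in CJ28 than in VEH, and lower than in MET, under each of the 21 alternatives, of which 12 left out a sample, and none was called with MET. This includes the 25 members given sample by sample, which kept their direction and call with CJ28 in 525 of 525 values. The member median with CJ28 (-0.99) was -0.84 after median-of-ratios scaling, -0.78 with nuclear protein-coding TPM and -1.01 to -0.98 when a sample was left out. The median with MET (-0.023) was 0.0083 after scaling and -0.032 to -0.012 when a sample was left out. Members past a log2 fold change of 1.5 numbered 2 with a pseudocount of 1, 3 after scaling, 2 with nuclear protein-coding TPM and 4 to 5 when a sample was left out, against 5. Over all genes, nuclear protein-coding TPM called 3294 lower in CJ28 than in VEH and 3165 lower than in MET, with fewer genes tested, against 6231 and 5818 with TPM as deposited, 4430 and 4391 after median-of-ratios scaling and 5386 and 5080 with a mean TPM of at least 1. Leaving out a sample gave 8945 to 9519 calls for CJ28 against VEH. For MET against VEH, 1 gene was called, which was lower. It was 0 with a pseudocount of 1, with a pseudocount of 0.01 and with a mean TPM of at least 1, 2 with nuclear protein-coding TPM, 5 without a filter (3 of them lower) and 1 to 2 when a sample was left out, with 2 without VEH sample 4 and 2 without MET sample 4. Adding a replicate block left the 43 members lower and gave 9546 genes called with CJ28, against 9577, and the block changed no other call of a member. The same numbers mark no shared batch in the labels. The causes of these shifts were not tested. Without read counts, the precision of low values is unknown.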

Other observations

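Within groups the lowest and highest values of the members were spread unevenly over the samples. VEH sample 1 was the lowest of its group for 21 members and VEH sample 3 for 14, CJ28 sample 4 was the lowest for 19 and CJ28 sample 3 the highest for 18, and MET sample 2 was the highest for 23. The median deviation of the members from their group mean stayed between -0.044 in CJ28 sample 4 and 0.034 in MET sample 2 on the log2 scale. Across the 43 members, Pearson's r between this deviation and transcript GC content was 0.62 in CJ28 sample 4, -0.58 in CJ28 sample 3, -0.52 in VEH sample 3 and 0.40 in VEH sample 1, described over genes of single libraries. The coefficient of variation of the members in VEH had a median of 3.72%, from 1.14% for the steadiest to 13.7% for the most variable.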
